A study of Mus musculus with 12 samples.

Results

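A set of 10 genes for proteins on the red cell surface that carry blood group antigens was compared in the blood of separate groups of mice. These were never hypoxic, chronically hypoxic or recovered from chronic hypoxia. They were chosen by name, as Rhag, Rhd, Kel, Ermap, Ackr1, Xk, Icam4, Bcam, Aqp1 and Gypc, and make up 10 of the 18194 genes that the array names through a probe set assigned to a single gene. A probe set is a group of short oligonucleotides that together measure 1 transcript. The 10 genes have 11 probe sets, of which 2 belong to Xk, and a gene is described by its brightest probe set unless another is named.

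Whole blood RNA came from 12 wild type C57Bl/10 mice aged 3 months, with 4 mice per group and 1 mouse per Affymetrix Mouse 430 2.0 array. The normoxic group (NX) was kept at 21% oxygen. The hypoxic group (CH) spent 14 days in a chamber whose oxygen was lowered in daily steps from 21% to 8%. It was then raised for some days and stood at 8% again at harvest. The recovery group (REC) had the same 14 days of CH and then 14 days at 21%. The study obtained the mice at 3 months of age, and its protocols differ in length between groups, so age at harvest may differ. Blood was drawn from the inferior vena cava near the liver and kidneys, with no sorting of cells, so that RNA of reticulocytes, leukocytes and platelets was measured together. One label field calls the CH mice normoxic. Their titles, their treatment and the study's methods call them hypoxic, which was followed here.

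Blood group antigens are carried by membrane proteins with work of their own. Rhag and Rhd form the Rh complex, in which Rhag acts as an ammonia channel. Kel, an endopeptidase, is joined by a disulfide bond to Xk, a lipid scramblase of the red cell. Ackr1 (Duffy) binds chemokines, Icam4 (LW) binds integrins, Bcam (Lutheran) binds laminin, and Aqp1 (Colton) is a water channel. Gypc (Gerbich) ties the membrane to the cytoskeleton through protein 4.1 and Mpp1. Ermap (Scianna) is a member of the immunoglobulin superfamily made in erythroid cells. Young red cells leave the marrow as reticulocytes that still hold such transcripts and lose their RNA as they mature. In a bulk sample, a change in the number of such cells and a change in RNA per cell cannot be told apart.

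GATA1 and KLF1 are the main activators of red cell genes and bind the GATA motifs AGATAA and TGATAA and the KLF motif CCACNCCC. The 250 bases before the RefSeq start of 9 of the 10 genes were searched for these letters on both strands. AGATAA or TGATAA occurred in 5 of the 9 windows, those of Rhag, Rhd, Ermap, Kel and Icam4, and in 16.6% of 32851 promoter windows of the same length. CCACNCCC occurred in 3 of the 9 windows, those of Xk, Icam4 and Bcam, and in 15.9% of all windows. Icam4 held both kinds, as did 1.69% of all windows. The windows of Ackr1 and Aqp1 held none of these letters. No other form of the GATA or KLF motif was searched. The windows of the 6 genes with the largest increase in CH are printed. Whether a match goes with the size of the increase was not tested. Each is given from RefSeq on the mouse build GRCm38.p6, 5′ to 3′ on the strand of the gene, with the matches in capitals. On the opposite strand TGATAA reads as TTATCA, whereas AGATAA reads as TTATCT and the KLF match as GGGCGTGG.
Rhag, chr17:40810899-40811148, plus strand: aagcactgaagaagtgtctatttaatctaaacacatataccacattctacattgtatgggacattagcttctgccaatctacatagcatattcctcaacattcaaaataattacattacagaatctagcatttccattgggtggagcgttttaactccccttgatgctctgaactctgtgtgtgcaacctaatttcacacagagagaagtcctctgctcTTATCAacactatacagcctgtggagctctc
Rhd, chr4:134864286-134864535, plus strand: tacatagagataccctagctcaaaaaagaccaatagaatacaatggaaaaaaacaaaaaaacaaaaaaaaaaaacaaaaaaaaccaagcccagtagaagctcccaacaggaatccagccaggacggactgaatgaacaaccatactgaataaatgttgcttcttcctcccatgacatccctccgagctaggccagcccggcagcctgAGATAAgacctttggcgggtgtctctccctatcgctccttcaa
Ermap, chr4:119189996-119190245, minus strand: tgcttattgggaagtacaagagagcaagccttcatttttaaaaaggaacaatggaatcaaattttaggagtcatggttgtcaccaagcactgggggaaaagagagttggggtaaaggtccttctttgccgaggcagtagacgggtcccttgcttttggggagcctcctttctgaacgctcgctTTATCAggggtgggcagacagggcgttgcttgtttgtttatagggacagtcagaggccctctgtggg
Kel, chr6:41704326-41704575, minus strand: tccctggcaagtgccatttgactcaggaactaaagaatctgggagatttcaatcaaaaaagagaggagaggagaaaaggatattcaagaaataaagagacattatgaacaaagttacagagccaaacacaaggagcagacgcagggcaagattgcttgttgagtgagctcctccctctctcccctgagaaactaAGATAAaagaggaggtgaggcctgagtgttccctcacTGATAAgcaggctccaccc
Icam4, chr9:21029182-21029431, plus strand: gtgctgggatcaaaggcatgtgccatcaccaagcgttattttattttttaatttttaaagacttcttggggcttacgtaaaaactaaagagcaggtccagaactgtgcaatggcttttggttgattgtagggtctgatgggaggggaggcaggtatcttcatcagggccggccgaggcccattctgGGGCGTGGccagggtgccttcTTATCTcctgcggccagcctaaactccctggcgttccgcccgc
Ackr1, chr1:173333504-173333753, minus strand: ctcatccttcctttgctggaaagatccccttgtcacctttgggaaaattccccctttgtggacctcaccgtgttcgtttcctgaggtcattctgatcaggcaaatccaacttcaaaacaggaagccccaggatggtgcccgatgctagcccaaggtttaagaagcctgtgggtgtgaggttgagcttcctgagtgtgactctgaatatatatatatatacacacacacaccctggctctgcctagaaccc
The match of Rhag began 31 bases before the start and that of Rhd 43 bases before it. Kel had 1 match of each GATA motif, at 56 and 19 bases, and Ermap had its match at 67. Icam4 had its GATA match at 43 bases and its KLF match at 64. In the windows not printed, the KLF match of Xk lay at 8 bases and those of Bcam at 40 and 28. A match is a description of the letters, and no binding was measured here.

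The signals were deposited without a log, and every array had a trimmed mean of 150. Array medians ran from 32.9 to 59.9, and between 19.6% and 33.4% of the signals of an array were below 16. Differences were tested with limma on log2(signal + 16), so that a change of a dim transcript is understated, and a probe set was called at an adjusted p under 0.05 with at least a 2-fold change. The hybridization controls, bacterial transcripts added to the samples, had a mean log2 signal of 12.3 to 13.1 in NX, 14.0 to 14.6 in CH and 11.6 to 12.2 in REC. Scaling the arrays on these controls moved the median difference of all probe sets between CH and NX from 0.11 to -0.71 and that between REC and NX from -0.10 to 0.40. For the 10 genes, the calls and signs that this scaling changes are given with it, and for the other gene lists the counts. The 3′ probe set of actin was 1.54 to 2.11 times as bright as the 5′ one, a measure of RNA integrity, and the ratios of the 4 CH arrays lay above those of all NX and REC arrays. The part of these array measures in the differences was not tested. The array CH 3 stood apart in leukocyte RNA, with a signal of 5239 for the B cell gene Cd79b against 725.8 to 2370 on the other CH arrays.

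After 14 days of CH, 9 of the 10 genes were called higher than in NX, by 3.97-fold to 17.3-fold, against 8.04% of all 45101 probe sets called higher and 13.9% called lower. Of all calls 36.6% were in the higher direction, which became 26.8% with arrays centred on their medians and 3.08% with scaling on the hybridization controls. The median difference of the 10 genes was 2.91 on the log2 scale, and that of all probe sets was 0.11. Rhd, Kel and Rhag had the largest differences. Bcam was the gene not called, just under the 2-fold threshold. In all 11 probe sets the 4 CH mice lay above the 4 NX mice, which was so for 10.2% of all probe sets. With the arrays scaled on the hybridization controls, 6 genes were called higher (Rhag, Rhd, Kel, Ermap, Ackr1 and Icam4), and Xk, Gypc and Aqp1 kept positive differences of 0.84, 0.56 and 0.42 without a call.

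**Figure D1:**
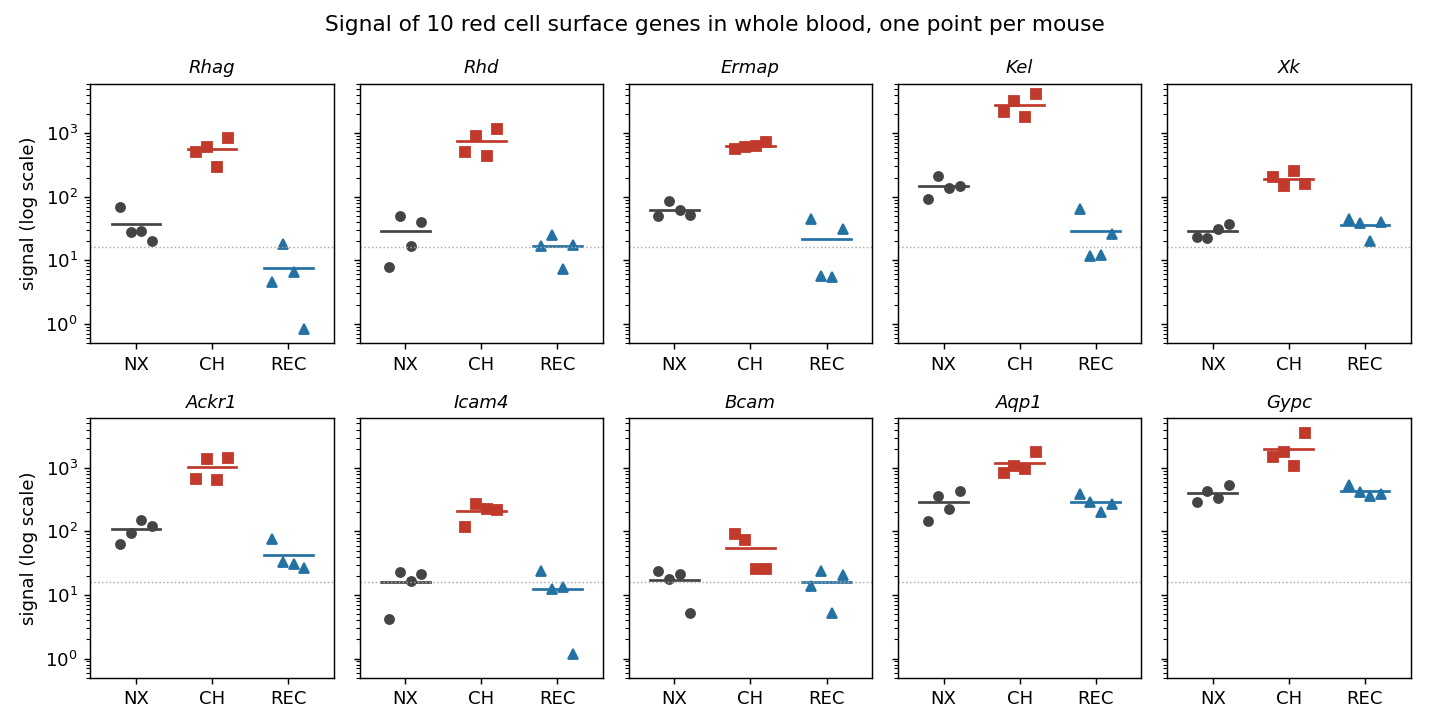
Signal of each gene's brightest probe set in every mouse, on a log axis, with NX as circles, CH as squares, REC as triangles and the group mean as a line; the dotted line marks a signal of 16, the constant added before the log was taken. In every panel the 4 CH mice lie above all NX and REC mice.

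The Rh complex was low in NX. Rhag had signals of 69.4, 27.9, 28.8 and 20.0 in the NX mice, 496.1, 599.2, 291.0 and 833.8 in the CH mice, and 4.61, 17.7, 6.64 and 0.83 in the REC mice. The 3 groups did not overlap, and 3 NX and all 4 REC values lay below their array's median signal. The difference between CH and NX was 3.43 ± 0.35 (log2, SE), or 10.8-fold (adjusted p = 1.2e-05, n = 4 per group). Rhd, the single Rh gene of the mouse, whose human counterparts encode RhD and RhCE, had signals of 7.68, 49.4, 16.9 and 39.3 in NX, 499.5, 908.4, 432.8 and 1158 in CH, and 16.6, 25.3, 7.31 and 17.0 in REC. The REC values of Rhd overlapped those of NX. Its difference of 4.11 ± 0.38 between CH and NX (17.3-fold, adjusted p = 5.25e-06) was within its error of that of Kel. Whether Rhag and Rhd moved unequally was compared through their log2 difference per mouse, which changed by -0.68 between CH and NX (exact permutation p = 0.4, adjusted over 12 such comparisons 0.48).

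Kel showed the widest swing. Its signals were 91.8, 212.0, 138.8 and 145.9 in NX, 2169, 3158, 1775 and 4136 in CH, and 63.4, 11.7, 11.9 and 26.2 in REC. The 3 groups did not overlap. Kel was 17-fold higher in CH than in NX (log2 4.09 ± 0.37, adjusted p = 5.28e-06). Xk, the partner of Kel in the membrane, had signals of 22.9, 22.4, 31.3 and 37.5 in NX, 202.7, 147.3, 250.8 and 159.3 in CH, and 43.7, 38.3, 20.2 and 40.4 in REC. All NX values of Xk lay below the median signal of their array and all CH values above it. Its difference between CH and NX was 2.20 ± 0.25 (4.58-fold, adjusted p = 2.81e-05). The second, dimmer probe set of Xk had signals of 36.1, 20.5, 15.1 and 23.9 in NX, 56.3, 89.5, 45.8 and 44.6 in CH, and 10.2, 8.09, 9.19 and 14.8 in REC. The 3 groups did not overlap in this probe set, and its difference of 0.90 between CH and NX (adjusted p = 0.0144) stayed under the 2-fold threshold. Kel was compared with the brighter probe set of Xk only, and the added constant understates a change of this dim transcript. Between REC and NX this probe set differed by 0.20, against -0.57 in the dimmer one. The log2 difference of Kel over Xk per mouse was 1.89 larger in CH than in NX and changed by -2.18 from NX to REC. Neither comparison had an overlap between groups, and each reached the smallest p that 4 against 4 mice allow (exact permutation p = 0.0286), which became 0.0572 after adjustment. In REC 3 of the 4 Kel values lay below the median signal of their array.

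Ermap varied least among the CH mice. Its signals were 49.8, 86.5, 61.6 and 50.7 in NX, 562.7, 614.0, 628.6 and 731.3 in CH, and 43.9, 5.55, 5.51 and 31.4 in REC. The CH values had a coefficient of variation of 11.1%, against 24.7% to 60.7% in the other 9 genes, and the groups did not overlap. The difference between CH and NX was 3.07 ± 0.33 (8.42-fold, adjusted p = 1.64e-05).

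Ackr1 had signals of 63.7, 95.3, 150.1 and 121.9 in NX, 657.2, 1384, 654.1 and 1427 in CH, and 77.2, 33.1, 30.7 and 26.5 in REC. The CH values fell into a lower and an upper pair, and 1 REC mouse lay within the NX range. Its difference between CH and NX was 3.03 ± 0.35 (8.18-fold, adjusted p = 3.27e-05). Ackr1 is also made by the endothelium of venules, where it moves chemokines across the vessel wall.

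The adhesion proteins Icam4 and Bcam were dim in NX. Icam4 had signals of 4.22, 22.9, 16.3 and 21.4 in NX, 115.2, 270.5, 228.8 and 216.1 in CH, and 23.5, 12.2, 13.2 and 1.16 in REC. All CH values lay above their array's median signal and all NX and REC values below it. The difference between CH and NX was 2.78 ± 0.33 (6.89-fold, adjusted p = 3.32e-05). Bcam had signals of 23.9, 17.7, 21.4 and 5.11 in NX, 89.5, 73.8, 26.1 and 26.1 in CH, and 13.9, 23.9, 5.18 and 20.4 in REC. A pair of CH mice lay close to the highest NX and REC values, and those 2 CH values were below the median signal of their array. The difference between CH and NX was 1.00 ± 0.35 (1.99-fold, adjusted p = 0.0458), with a 95% interval from 0.25 to 1.74. With scaling on the hybridization controls it was -0.0012 (adjusted p = 0.999). The log2 difference of Icam4 over Bcam changed by 1.79 between CH and NX (exact permutation p = 0.0571, adjusted p = 0.0979).

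Aqp1 and Gypc were well measured in all 3 groups, above the median signal on all 12 arrays. Aqp1 had signals of 147.8, 363.5, 225.1 and 438.0 in NX, 836.7, 1083, 969.7 and 1807 in CH, and 391.2, 291.9, 200.2 and 273.9 in REC. The REC values lay inside the NX range. Aqp1 was 3.97-fold higher in CH than in NX (log2 1.99 ± 0.35, adjusted p = 0.000694). Gypc had signals of 290.5, 431.8, 334.9 and 541.6 in NX, 1482, 1783, 1079 and 3492 in CH, and 545.0, 415.3, 363.3 and 383.3 in REC. The REC values again overlapped those of NX. Gypc was 4.43-fold higher in CH (log2 2.15 ± 0.33, adjusted p = 0.000299). Neither gene was called with scaling on the hybridization controls, where their differences were 0.42 and 0.56.

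**Figure D2:**
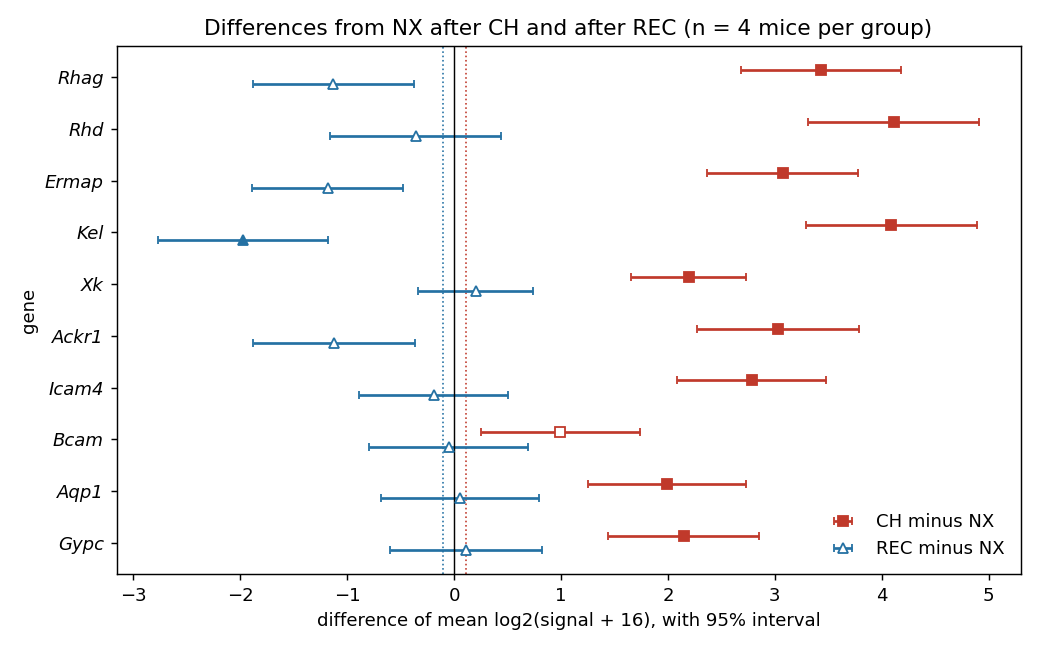
Difference of the mean log2(signal + 16) from NX after CH (squares) and after REC (triangles) for each gene, with 95% intervals from limma; filled symbols were called and dotted lines are the medians of all probe sets. The CH differences run from 1.00 in Bcam to 4.11 in Rhd and only Kel was called lower in REC; with scaling on the hybridization controls the sign of Bcam in CH and those of Rhd, Icam4 and Bcam in REC turned.

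At 14 days after the return to 21% oxygen, Kel was the only gene of the 10 called lower than in NX, against 2.74% of all probe sets called lower. Its mean signal was 28.3 ± 24.3 (SD, n = 4) in REC against 147 ± 49.5 in NX, a log2 difference of -1.97 ± 0.37 (3.93-fold, adjusted p = 0.00831). Kel was called lower in each of the 25 alternatives tried, with a highest adjusted p of 0.039. Ermap, Rhag and Ackr1 had differences of -1.18 (adjusted p = 0.0541), -1.13 (adjusted p = 0.0853) and -1.12 (adjusted p = 0.0898) and were not called. Rhag, Kel and Ermap did not overlap with NX, as was so for 11.8% of all probe sets in the lower direction. Fitting only the 8 arrays of NX and REC called 4 genes lower. The other 6 genes lay between -0.36 in Rhd and 0.20 in Xk, with 95% intervals that included 0. The dimmer probe set of Xk differed by -0.57 (95% interval -1.10 to -0.03, adjusted p = 0.249) and did not overlap with NX either. None of the 10 was called higher by limma, against 1.62% of all probe sets, and none was higher at an unadjusted p under 0.05. Of all calls in this comparison 37.1% were higher, against 51.7% with median centring and 94.8% with scaling on the hybridization controls. The median difference of the 10 genes was -0.28, and that of all probe sets -0.10.

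Between CH and REC, all 10 genes were called higher in CH, against 12.6% of all probe sets called higher and 15.2% called lower, and none of the groups overlapped, as was so for 16% of all probe sets in that direction. The REC arrays are the same as in the comparison with NX, and the CH arrays are those compared above. Kel differed by 6.06 ± 0.37 (66.8-fold, adjusted p = 4.2e-08), Rhag by 4.56, Rhd by 4.47, Ermap by 4.26 and Ackr1 by 4.15. Icam4 followed with 2.97. Gypc, Xk and Aqp1 differed by 2.04, 1.99 and 1.94, and Bcam by 1.05 (adjusted p = 0.0305). Bcam lost this call under 11 of 24 alternatives, among them quantile normalization (0.77) and median centring (0.73). The higher share of all calls was 45.3%, against 26.4% with median centring and 2.55% with scaling on the hybridization controls. With the latter 6 genes were called higher, and Bcam, Aqp1 and Gypc turned to -0.37, -0.41 and -0.34.

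Whether the members moved more or less than other red cell genes was asked by subtracting, on each array, the mean log2 signal of 8 measured reference genes (Slc4a1, Epb42, Ank1, Sptb, Alas2, Hemgn, Tmod1 and Hba-a1). The probe set of Hba-a1 was itself below the median signal on all 12 arrays, with signals of 1.16 to 25.4. It differed by 0.42 between CH and NX, so the reference holds no usable measure of globin RNA. Only members above the median signal on all arrays of the groups compared are given, since the added constant holds the dimmer ones up. Between CH and NX, 0.142% of all probe sets were called higher on this scale and 97.2% lower, with a median difference of -2.76. Kel was higher by 1.21 ± 0.37 relative to the reference genes (adjusted p = 0.00352), but by 0.62 and without a call when the globin gene and Alas2 were left out of the reference, and by 0.36 against the median of the reference genes. Ackr1 differed by 0.16, Gypc by -0.73 and Aqp1 by -0.89, none of them called. Without the globin gene and Alas2, the differences of Aqp1 and Gypc were -1.48 and -1.32, and against the median -1.74 and -1.58, and both were called lower each time. In REC against NX, 77.2% of all probe sets were called higher on this scale, with a median difference of 1.43. Aqp1 was 1.58 ± 0.39 and Gypc 1.64 ± 0.39 higher relative to the reference genes there (adjusted p = 0.00263 and 0.00211), close to that median. In CH against REC, 98.8% of all probe sets were called lower, with a median difference of -4.16. Aqp1 and Gypc had differences of -2.47 and -2.37. Against the median of the reference genes these became -3.88 and -3.78, and the differences between REC and NX 2.14 and 2.20.

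The order of the 4 CH mice was shared by 5 of the 10 genes. In Rhag, Rhd, Kel, Ackr1 and Gypc it ran from CH 4 through CH 2 and CH 1 down to CH 3. CH 4 was the highest CH mouse in 7 of the 10 genes, these 5 with Ermap and Aqp1. The hybridization controls were also brightest on CH 4, with mean log2 signals of 14.04, 14.26, 14.22 and 14.65 in CH 1 to CH 4. The order of the mice was not recomputed with scaling on these controls. CH 1 was the lowest in Ermap, Icam4 and Aqp1. The reference genes deviated from their CH mean by -0.30, 0.14, -0.28 and 0.44 in CH 1 to CH 4 (log2). Gypc deviated by -0.26, 0.004, -0.71 and 0.97, and Kel by -0.29, 0.24, -0.58 and 0.63, where CH 1 and CH 3 changed places against the reference genes. Bcam had 0.72, 0.49, -0.61 and -0.61, with CH 3 and CH 4 tied as the lowest. Icam4 was highest in CH 2 and Xk in CH 3. Leaving out CH 4 lowered the difference of Gypc between CH and NX from 2.15 to 1.83, and leaving out CH 3 or CH 4 raised that of Bcam to 1.20, where it was called.

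**Figure D3:**
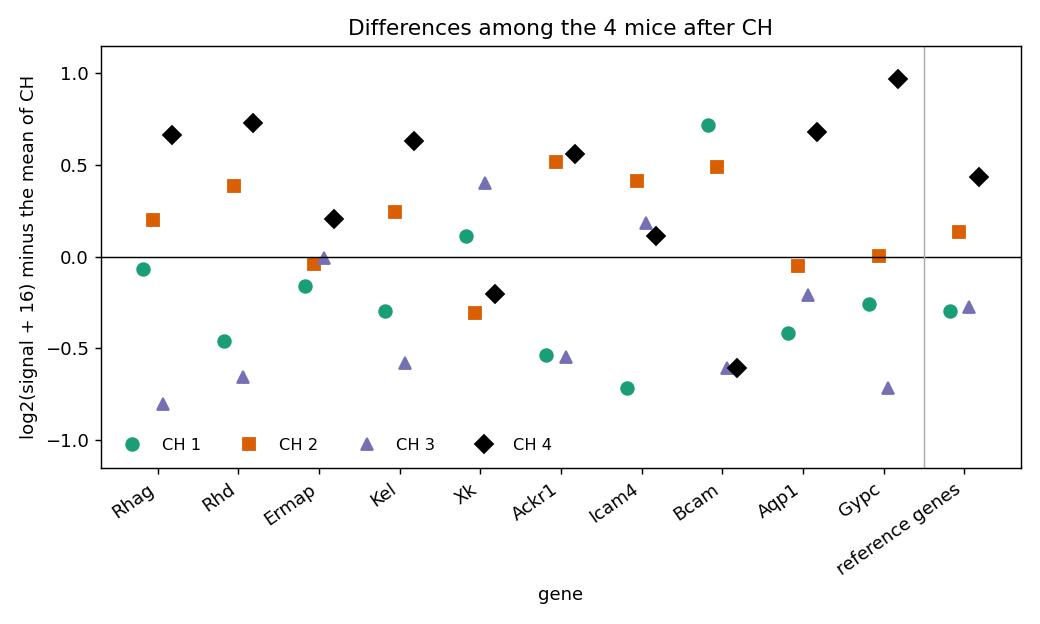
Deviation of each CH mouse from the mean of the 4 CH mice in log2(signal + 16), for the 10 genes and, at the right, for the mean of the red cell reference genes. CH 4 (diamonds) is highest in 7 of the 10 genes, and its hybridization controls were also the brightest of the CH arrays. The order CH 4, CH 2, CH 1, CH 3 is shared by 5 genes, and Ermap, Aqp1, Icam4, Xk and Bcam each run in another.

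Likeness of pattern was measured as the root mean square difference of log2 signals over the 12 arrays, each gene centred on its own mean. Among the 10 genes, Gypc and Aqp1 were closest, at 0.255, and Bcam and Kel farthest apart, at 2.18. Among all other genes, Ank1 (0.237), which anchors the membrane skeleton, was second closest to Kel after Txnrd2 (0.231). Tfrc, the transferrin receptor that brings iron into erythroid cells, was closest to Rhag (0.408), and Stom, a protein of membrane rafts, closest to Aqp1 (0.218). Atpif1 was closest to Gypc (0.209), Ube2f to Ermap (0.234), Smap1 to Ackr1 (0.271), Ctsb to Rhd (0.308), Dcaf7 to Icam4 (0.305), Rps10 to Xk (0.295) and 4930556M19Rik to Bcam (0.166). These distances describe 12 arrays of 3 groups, and a dim gene lies close to many others because its signal moves little.

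Other proteins that carry blood group antigens did not all rise. In CH 9 of 21 measured were above NX with a call and 3 below it, against 8.04% of all probe sets called higher and 13.9% called lower. The median difference of the 21 was -0.33. Prnp, the prion protein, rose by 4.42 ± 0.38, from signals of 63.0, 202.0, 101.3 and 106.0 in NX to 1664, 2675, 2295 and 4977 in CH. Abcg2 (Junior), which exports porphyrins, rose by 3.96 ± 0.41. Bsg (Ok), a partner of lactate transporters, rose by 3.65 ± 0.31, and Slc4a1 (Diego), the anion exchanger band 3, by 2.73 ± 0.41. Cd59a, Art4, Abcb6, Slc14a1 and Cd47 were the other 5 called higher, with differences from 2.17 down to 1.12. With scaling on the hybridization controls only Prnp, Abcg2, Bsg and Slc4a1 were called higher and 11 genes lower, and Slc14a1 and Cd47 turned to -0.35 and -0.48. Emp3 (MAM) fell by 2.41 on the log2 scale (adjusted p = 0.00169), the choline transporter-like Slc44a2 fell by 1.64 (adjusted p = 0.00253) and the complement regulator Cr1l fell by 1.22 (adjusted p = 0.0025). Emp3 had signals of 181.8, 107.5, 972.9 and 185.4 in CH, with its highest value in CH 3, against 1011 to 1714 in NX. In REC, Slc4a1 was the only one called, with a difference of -2.52 ± 0.41 (adjusted p = 0.00376), whereas scaling on the hybridization controls called 6 higher beside it.

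The enzymes that build carbohydrate blood groups were mostly dim. Of 8, only Fut2, a fucosyltransferase of the Lewis and secretor antigens, was called in CH, where 8.04% of all probe sets were called higher. It was higher by 1.48 ± 0.27 (adjusted p = 0.00103) at signals of 38.0 to 68.8 against 2.51 to 16.7 in NX. It was not called with scaling on the hybridization controls (0.51). None of the 8 enzymes was called in REC by limma, and none had an unadjusted p under 0.05 there.

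The anchors of the surface proteins rose together. All 8 measured genes of the list were called higher in CH than in NX, against 8.04% of all probe sets. Their median difference was 3.53, and that of all probe sets was 0.11. Ank1 rose by 4.34 ± 0.37, Epb42, which ties band 3 to ankyrin, by 4.20 ± 0.45, Sptb, a spectrin chain, by 3.82 ± 0.43, and Add2, an adducin, by 3.57 ± 0.38. Dmtn, Mpp1, Tmod1 and Stom were the others, and with scaling on the hybridization controls Stom was not called (0.49). In REC, 5 of the 8 were called lower than in NX, against 2.74% of all probe sets. These were Dmtn (-2.48), Epb42 (-2.44), Ank1 (-1.94), Sptb (-1.78) and Mpp1 (-1.33), while Add2, Tmod1 and Stom had 0.40, -0.26 and -0.12. With scaling on the hybridization controls Mpp1 was not called (-0.54) and Add2 was called higher (1.08). Quantile normalization called 4 of the 8 lower in REC and median centring 3. Against Mpp1, its binding partner, Gypc changed by -1.34 in CH and by 1.45 in REC (log2 difference per mouse, exact permutation p = 0.0286 each, adjusted p = 0.0572), with no overlap of groups in either comparison.

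**Figure D4:**
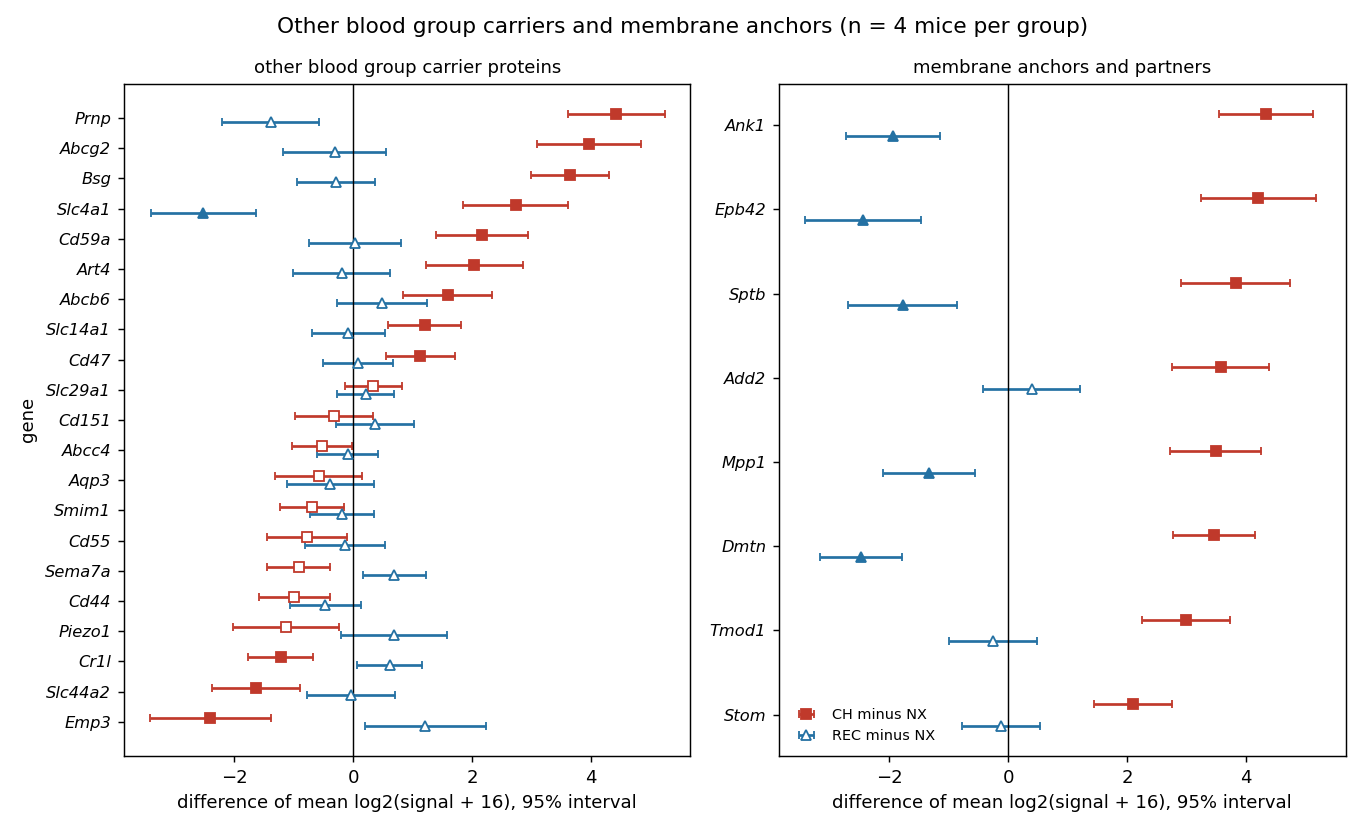
Difference of the mean log2(signal + 16) from NX after CH (squares) and after REC (triangles), with 95% intervals from limma, for 21 other blood group carriers and 8 anchors and partners; filled symbols were called. All 8 anchors lie above 0 in CH, whereas the carriers spread from -2.41 in Emp3 to 4.42 in Prnp; with scaling on the hybridization controls Slc14a1, Cd47 and Slc29a1 turned below 0 in CH, and 12 genes of these lists that were not called turned above 0 in REC.

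Most relatives of the 10 genes were not called in CH. Of 19 measured, 3 were called higher and 3 lower, against 8.04% and 13.9% of all probe sets. The higher ones were the aquaporin Aqp9 (2.44), Icam5 (1.54) and the endopeptidase Mme (1.06). None of these was called with scaling on the hybridization controls (0.85, 0.75 and 0.10). The leukocyte adhesion genes Icam2 and Icam1 fell by 2.20 and 2.16 on the log2 scale, and the endopeptidase Ece1 fell by 1.33, and with scaling on the hybridization controls 7 genes of this list were called lower. Icam2 had signals of 63.7, 109.4, 278.9 and 156.9 in CH against 557.5 to 820.8 in NX, whereas Icam4 was higher in CH than in NX. In REC only Ece2 was called, higher by 1.34 (adjusted p = 0.013), and 4 were called higher with scaling on the hybridization controls.

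Of 9 erythroid transcription factors, 5 were called higher in CH than in NX and 1 lower, against 8.04% and 13.9% of all probe sets. E2f2 rose by 2.94 ± 0.35, Zfpm1, the cofactor of GATA1, by 2.73 ± 0.33, Klf1 by 2.73 ± 0.36 and Gata1 by 2.49 ± 0.29. Lmo2 was the fifth, with 1.78. Gata1 had signals of 340.9, 506.8, 344.3 and 562.5 in NX and 1990, 2506, 2208 and 3418 in CH, without overlap. Gata1 and Lmo2 were not called with scaling on the hybridization controls (0.90 and 0.17), which called 3 of the 9 higher and 3 lower. Ldb1, a partner of Lmo2, fell by 1.72 on the log2 scale (adjusted p = 0.0252). In REC, E2f2 (-3.17, adjusted p = 0.000533) and Lmo2 (-1.11, adjusted p = 0.0149) were called lower. With scaling on the hybridization controls Lmo2 was not called there (-0.31), and Gata1, Tal1, Nfe2 and Gfi1b were called higher.

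Markers of other cells were counted beside the members, since Ackr1, Aqp1 and Bcam are also made by endothelium and Aqp1 by kidney epithelium. Of 10 endothelial markers, limma called 1 lower (Esam, -1.64) and none higher in CH, against 13.9% and 8.04% of all probe sets. None of the 10 was higher at an unadjusted p under 0.05. The summed signal of the 10 was 2402 to 4247 in NX, 1697 to 3204 in CH and 2121 to 3937 in REC. Most of it was the signal of Vwf, with 1535 to 3042 in NX, 1197 to 2721 in CH and 1501 to 2921 in REC. The sum thus says little of the dimmer markers, and 4 of the 10 lay below the median signal on all NX arrays. Itga2b, a platelet marker, had signals of 851 to 1979 in NX, 784.2 to 1536 in CH and 1048 to 2050 in REC. It ordered the mice as Vwf did in NX and in REC, though not in CH. Whether Vwf or the other markers of this list were measured from endothelium or from platelets was not tested. The 4 measured markers of kidney epithelium summed to 32.1 to 79.5 in NX, 73.5 to 150 in CH and 25.1 to 72.6 in REC, none of them called. The 4 measured hepatocyte markers summed to 92.7 to 357.5 in NX and 97.2 to 369.0 in CH and 80.1 to 126.7 in REC, none of them called. Of 6 measured red cell and reticulocyte markers, 5 were called higher in CH and 4 lower in REC, against 8.04% and 2.74% of all probe sets. The dim probe set of Hba-a1 was among the 6. Leukocyte markers were called lower in CH for 5 of 6 genes in general, 3 of 3 of B cells, 3 of 3 of T cells and 1 of 3 of monocytes, and none of the neutrophil or platelet markers was called. These counts moved with the scaling. On the hybridization controls, 4 of 4 neutrophil and 4 of 5 platelet markers and 4 of 10 endothelial markers were called lower in CH, and with quantile normalization 2 neutrophil and 2 platelet markers were. The red cell and reticulocyte markers called were 3 higher in CH and 2 lower in REC on the hybridization controls, and 2 and 3 with quantile normalization. In REC, scaling on the hybridization controls called 2 of 5 platelet and 3 of 3 T cell markers higher. The part of this shift in cell makeup in the differences of the 10 genes was not tested.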

How the data were processed

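Whole blood RNA was hybridized to 12 Affymetrix Mouse 430 2.0 arrays, 4 mice each in NX, CH and REC. The deposited file gives linear intensities, as 1 value per probe set and array with equal trimmed means. The authors described GC-RMA normalization in Partek, which gives log2 values, so these come from another step. The methods also name the GeneChip Operating System as the store of raw intensities. Whether it gave the deposited values is not known here. Detection calls and scan batches were not given, and the number of arrays limits the precision. Per the labels each sample came from 1 mouse, and arrays of a group correlated at r of 0.824 to 0.977, with none identical.

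Of 45101 probe sets, 34958 name 1 gene in the platform annotation, with symbols updated by gene number for 34754. A gene was measured by its brightest single-gene probe set. With limma 3.58.1 (R 4.3.3), group means were fitted to log2(signal + 16) over all 12 arrays, leaving 9 residual degrees of freedom, with Benjamini-Hochberg adjustment over all probe sets, and calls needed an adjusted p under 0.05 and at least 2-fold. Differences between a pair of genes were tested per mouse by exact two-sided permutation, 12 times in all. The fits were tested on simulated data. Of 126 further listed genes, 115 were measured. Named were the 10 members, up to 4 called genes of each list with the largest change (all where at most 5 were called) and the closest genes by likeness, with others named after their values were seen. The difference from the reference genes was computed for all members, and limiting its account to those above the median signal was decided after the values were seen. Scaling on the hybridization controls was applied before the log was taken. The members and lists were chosen with earlier results of these data known. Python 3.11.15 and matplotlib 3.10.9 drew the figures. The alternatives were 3 other scalings, a pseudocount of 1, leaving out dim probe sets, an unmoderated test, a trend and robust prior, fitting the 8 arrays compared, array weights, a replicate block, an adjusted p under 0.01, other choices of probe set and of reference genes, and leaving out each array.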

Additional observations from a re-analysis of the deposited data

How the results depend on the processing

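The calls of the 10 genes were recomputed under each alternative. In CH against NX, 9 genes were called higher, and 6 to 10 under the alternatives, the lowest count with scaling on the hybridization controls. That scaling gave -0.0012 for Bcam in CH against NX, 0.070, 0.13 and 0.37 for Rhd, Icam4 and Bcam in REC against NX, and 6 genes called higher in CH against REC, where Bcam, Aqp1 and Gypc had -0.37, -0.41 and -0.34. In REC against NX, 1 gene was called lower, against 3 without dim probe sets, 4 with the 8 arrays only, 3 with array weights, and 1 to 2 when 1 array was left out. The second call came with CH 3 left out (Rhag) and with CH 4 or REC 1 left out (Ermap). Small differences between REC and NX that no fit called changed sign. Aqp1 had -0.089 with array weights, Xk -0.18 with the mean of its probe sets and -0.57 with its other one, and Bcam 0.10 with quantile normalization and 0.11 with median centring. When 1 array was left out, Icam4 ran from -0.40 to 0.033, Bcam from -0.25 to 0.13, Aqp1 from -0.22 to 0.27 and Gypc from -0.022 to 0.27. The call of Bcam in CH against REC was lost when CH 1, CH 2, REC 1 or REC 3 was left out, and also with a pseudocount of 1, without moderation, with the 8 arrays only, at an adjusted p under 0.01 and under each of the 3 other scalings. Relative to the reference genes, Ackr1 in CH against NX had -0.44 without the globin gene and Alas2 and -0.69 against the median. The cause of these changes was not tested. Same-numbered arrays of CH and NX correlated at 0.436, -0.203, 0.185 and 0.103 for replicates 1 to 4 in their deviations from the group means. NX 1 and CH 1, the highest of these, also had the highest median signals of their groups, 57.1 and 59.9. What these arrays share was not tested. With the replicate number as a block the counts stayed at 9 higher in CH and 1 lower in REC against NX. Signals near an array's median or below it limit what can be said of Rhag, Icam4, Bcam, Xk and Rhd in NX and REC. The same holds for Kel, Ermap and Ackr1 in REC, where 3 of the 4 values of each lay below their array's median.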
